A study of Danio rerio with 7 samples.

Results

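The genes her2, chrac1, airim, trim35-29, ino80b, ccdc127b and iqgap2, 7 in all, were chosen from the whole-animal arrays of 7 adult zebrafish because 1 probe of each read higher in all 4 fish labelled female than in all 3 labelled male. By the limma p of the difference between the sexes, these 7 probes were the first 7 of 12061 tested probes with a gene name. The values that chose them are the same as those described here, so the difference between the sexes is given for these genes as a description, with no test. All other probes of the same genes were added by their RefSeq accession, which gave 13 probes in all. These are 13 of the 43603 distinct probes on the array and of the 22705 that were bright enough to be tested, and all 13 were tested. For chrac1 and her2 the array had 1 named probe each, and the other 5 genes had 2 or 3.

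The fish were full sibs of a hybrid strain labelled AB x unknown, AB being a common laboratory strain, and none carried a stated allele or treatment. The females were numbered 4, 7, 8 and 9 and the males 5, 8 and 9, each a separate animal on 1 array, and no age is stated beyond adult. Each fish was labelled with the dye Cy5 and set against a reference from adult whole animals of the same hybrid strain in Cy3, whose sex and number of animals are not given in the sources used here. The study used these fish to relate gene expression to copy number, and the genotypes were not analysed here. All values below are log2 ratios of fish over reference, so 0 is the level of the reference and a step of 1 is a 2-fold change.

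The 7 genes have little in common in their known roles. Her2 belongs to the hairy and enhancer of split family, transcriptional repressors many of which are switched on by Notch signalling. Chrac1 and ino80b encode subunits of complexes that slide nucleosomes, and airim encodes a factor of ribosome assembly. Trim35-29 belongs to a family of ubiquitin ligases, and iqgap2 encodes a scaffold of the actin cytoskeleton. In an adult female zebrafish the ovary fills much of the body cavity and its oocytes store RNA for the embryo, so whole-animal RNA from a female holds much RNA of the egg. Laboratory strains such as AB have no known sex chromosome, and adult sex is read from the animal itself.

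The library labelled male 5 went against its label in several marker genes. The egg coat gene zp2.1 was at -0.09 in it, at -0.21 ± 0.25 in the females (SD, n = 4), at -5.63 in male 8 and at -4.14 in male 9. The median of 7 egg coat and oocyte markers was 0.50 in the library labelled male 5, between -0.47 and 0.61 in the females, -5.17 in male 8 and -3.14 in male 9. The median of 3 sperm tail markers was 0.03 in the library labelled male 5, between -0.05 and 0.28 in the females, and 2.0 and 2.22 in males 8 and 9. Over 10193 probes that were bright on every array in Cy5, the library labelled male 5 correlated at r = 0.87 with female 8 and 0.80 with female 4. It correlated at 0.47 with female 7, 0.50 with female 9, 0.42 with male 8 and 0.34 with male 9. Females 4 and 8 and the library labelled male 5 shared scan session 3. Females 7 and 9 and male 9 shared session 1, and male 8 was alone in session 2. Male 9 correlated at 0.75 with female 7 and 0.74 with female 9. In the r of the library labelled male 5, sex cannot be told apart from scan session. The share of spots well above background in Cy5 ran from 29.8% in the library labelled male 5 to 65.3% in female 7, which limits the precision of the session 3 arrays most. The female minus male difference of each of the 13 probes is therefore given with and without the library labelled male 5.

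The plot of the chosen probes by fish shows the pattern by which the genes were picked. On 8 of the 13 probes, the 7 that chose the genes and 1 of the other 6, every fish labelled female was above every fish labelled male. Among all 22674 tested probes with a value on every array, 838 (3.7%) kept the sexes apart, with the females higher on 435 (1.92%). Because the genes were picked for this, nothing is read from their share. Over all 7 fish limma called 0 of 22705 probes (0%) by sex at a Benjamini-Hochberg adjusted p under 0.05, with 1525 (6.72%) at an unadjusted p under 0.05 and a smallest adjusted p of 0.539. Without the library labelled male 5, limma called 5757 of all 22705 probes (25.4%), 2999 (13.2%) of them higher in females, and no call is read for the 13 probes there, since the same fish chose the genes.

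**Figure D1:**
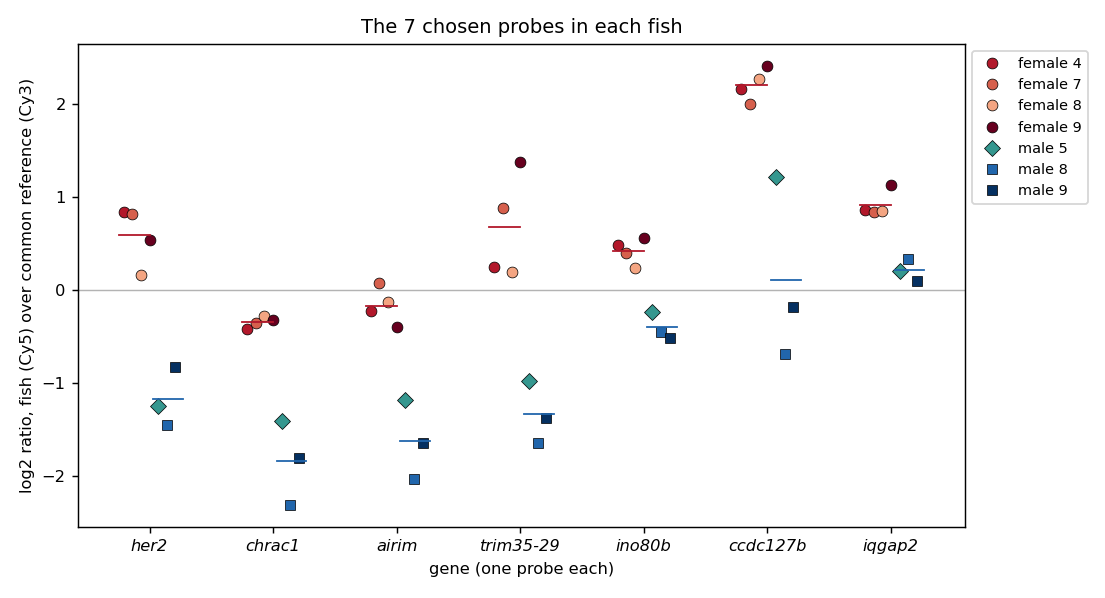
Log2 ratio of each fish over the common reference (vertical axis) for the probe that chose each of the 7 genes (horizontal axis), with females as circles, males 8 and 9 as squares, the library labelled male 5 as a diamond and short lines at the mean of each sex. All circles lie above all other points for each gene, and the diamond of ccdc127b, at 1.21, lies nearer to the circles than to the squares.

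Her2 was above the reference in the females and below it in all 3 fish labelled male. Females 4, 7, 8 and 9 read 0.84, 0.82, 0.16 and 0.54, while the library labelled male 5 read -1.25, male 8 -1.45 and male 9 -0.83. The lowest female stood 0.99 above the highest male. The means were 0.59 ± 0.32 in females (SD, n = 4) and -1.18 ± 0.32 in males (SD, n = 3), a difference of 1.77 ± 0.24 (SE). Within the males the library labelled male 5 lay between the other two, and without it the difference was 1.73 ± 0.27. Blocked by scan session, which leaves out male 8 as the lone fish of session 2, it was 1.63 ± 0.24. It was 1.51 within session 1, against the lone male 9, and 1.75 within session 3, against the library labelled male 5, where the her2 spot was not well above background in Cy5.

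Chrac1 encodes a small histone-fold protein which, in flies and mammals, joins an ATPase of the ISWI type in the chromatin accessibility complex. At the loess-normalized values it was nearly level among the females, at -0.42, -0.36, -0.28 and -0.32 in females 4, 7, 8 and 9. The fish labelled male were all lower, at -1.41 in the library labelled male 5, -2.31 in male 8 and -1.81 in male 9. The female mean was -0.34 ± 0.06 (SD, n = 4) and the male mean -1.84 ± 0.45 (SD, n = 3), so nearly all of the spread within a sex was among the males. This held at the loess-normalized values, and the choice by p favours a small spread. With median centring females 4, 7, 8 and 9 read -1.59, 0.13, -1.64 and -0.87. The difference at the loess-normalized values was 1.5 ± 0.22 (SE), or 1.72 ± 0.18 without the library labelled male 5. Blocked by scan session, which leaves out male 8, it was 1.26 ± 0.16. Within sessions it was 1.47 in session 1 and 1.06 in session 3. Its spot stood well above background on every array.

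Ino80b encodes a subunit of the INO80 complex, which moves nucleosomes at promoters and at damaged DNA. The probe that chose it read 0.48, 0.39, 0.23 and 0.56 in females 4, 7, 8 and 9. It read -0.24 in the library labelled male 5, -0.45 in male 8 and -0.52 in male 9, where males 8 and 9 were not well above background in Cy5. The sexes were 0.47 apart at their nearest, and the difference of 0.82 ± 0.15 (SE, n = 4 and 3) was 0.90 ± 0.16 without the library labelled male 5. It was 1.00 within session 1 and 0.59 within session 3. The other ino80b probe did not keep the sexes apart: the females ran from -0.16 to 0.24 and the males from -0.59 to 0.11, with a difference of 0.28 ± 0.21, or 0.32 ± 0.24 without the library labelled male 5, where that spot was not well above background. Thus 1 of the 2 ino80b probes carried the pattern.

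Airim takes its name from the human protein, which binds AFG2-type ATPases that act on the maturing large ribosomal subunit. The probe that chose it read -0.23, 0.08, -0.13 and -0.39 in females 4, 7, 8 and 9. It read -1.18 in the library labelled male 5, -2.03 in male 8 and -1.65 in male 9, and the last 2 were not well above background in Cy5. The difference was 1.45 ± 0.23 (SE, n = 4 and 3), or 1.67 ± 0.20 without the library labelled male 5. A second airim probe, well above background on all 7 arrays, gave nearly the same values in 6 of the fish and another value in the library labelled male 5. There it read -0.23, inside the female range of -0.31 to 0.12, while males 8 and 9 were at -2.08 and -1.64. The difference by the second probe was 1.22 ± 0.42 (SE), or 1.76 ± 0.20 without the library labelled male 5. The 2 airim probes differed by 0.95 in the library labelled male 5, more than in any other fish. By the second probe the difference was 1.54 within session 1 and 0.14 within session 3, against 1.49 and 1.00 by the first.

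Trim35-29 is 1 of many zebrafish genes of the trim35 family, named after the mammalian ubiquitin ligase TRIM35, and cross-hybridisation among such copies was not tested. The probe that chose it read 0.25, 0.88, 0.19 and 1.37 in females 4, 7, 8 and 9. It read -0.98 in the library labelled male 5, -1.65 in male 8 and -1.38 in male 9, and its gap of 1.17 between the sexes was the widest of all named probes. The difference was 2.01 ± 0.33 (SE, n = 4 and 3), 2.18 ± 0.36 without the library labelled male 5, 2.50 within session 1 and 1.20 within session 3. The second probe also kept the sexes apart, the only one of the 6 other probes to do so. It read 2.39, 3.35, 1.12 and 4.17 in females 4, 7, 8 and 9, and 0.27 in the library labelled male 5, -0.18 in male 8 and -0.08 in male 9. Its difference was 2.76 ± 0.67 (SE), or 2.89 ± 0.78 without the library labelled male 5. In Cy5 males 8 and 9 were not well above background, and in the reference channel 0 of the 7 arrays were, so these ratios and their difference rest on signals near background and are approximate. In both probes females 7 and 9, scanned in session 1, were above females 4 and 8, scanned in session 3.

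Iqgap2 encodes a large scaffold that, in mammals, binds calmodulin, actin and the active form of the small GTPases Cdc42 and Rac1. The probe that chose it read 0.86, 0.83, 0.85 and 1.12 in females 4, 7, 8 and 9. It read 0.20 in the library labelled male 5, 0.34 in male 8 and 0.09 in male 9. In the reference channel this probe was well above background on 4 of the 7 arrays, so its ratios are approximate. All 7 fish were above the reference, and the difference of 0.71 ± 0.15 (SE, n = 4 and 3) was the smallest of the 7. It was 0.70 ± 0.17 without the library labelled male 5, 0.89 within session 1 and 0.65 within session 3. The other 2 iqgap2 probes did not keep the sexes apart, with differences of 0.24 ± 0.18 and -0.29 ± 0.32, or 0.19 ± 0.20 and -0.57 ± 0.29 without the library labelled male 5. Both were near background: the second probe was not well above it in Cy5 in female 4 and the library labelled male 5, the third not in those fish nor in female 8, and each had 3 arrays well above it in the reference channel. No order of the fish is read from them.

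Ccdc127b encodes a protein with a coiled coil and is named as 1 of a pair with ccdc127a. The probe that chose it read 2.16, 2.0, 2.26 and 2.41 in females 4, 7, 8 and 9. It read 1.21 in the library labelled male 5, -0.70 in male 8 and -0.19 in male 9. The library labelled male 5 was here nearer to the females than to the other males, at 62.5% of the way from the mean of males 8 and 9 to the female mean. The difference was 2.1 ± 0.43 (SE, n = 4 and 3), 2.65 ± 0.21 without the library labelled male 5, 2.39 within session 1 and 1.00 within session 3. By the second ccdc127b probe the library labelled male 5 was at -0.30, inside the female range of -0.35 to 0.08, with males 8 and 9 at -1.14 and -0.84. Its difference was 0.55 ± 0.23 (SE), or 0.78 ± 0.19 without the library labelled male 5. It was 0.72 within session 1 and 0.00 within session 3. The 2 probes also differed in level, by as much as 2.72 in female 9, so the size of the difference depends on the probe.

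**Figure D2:**
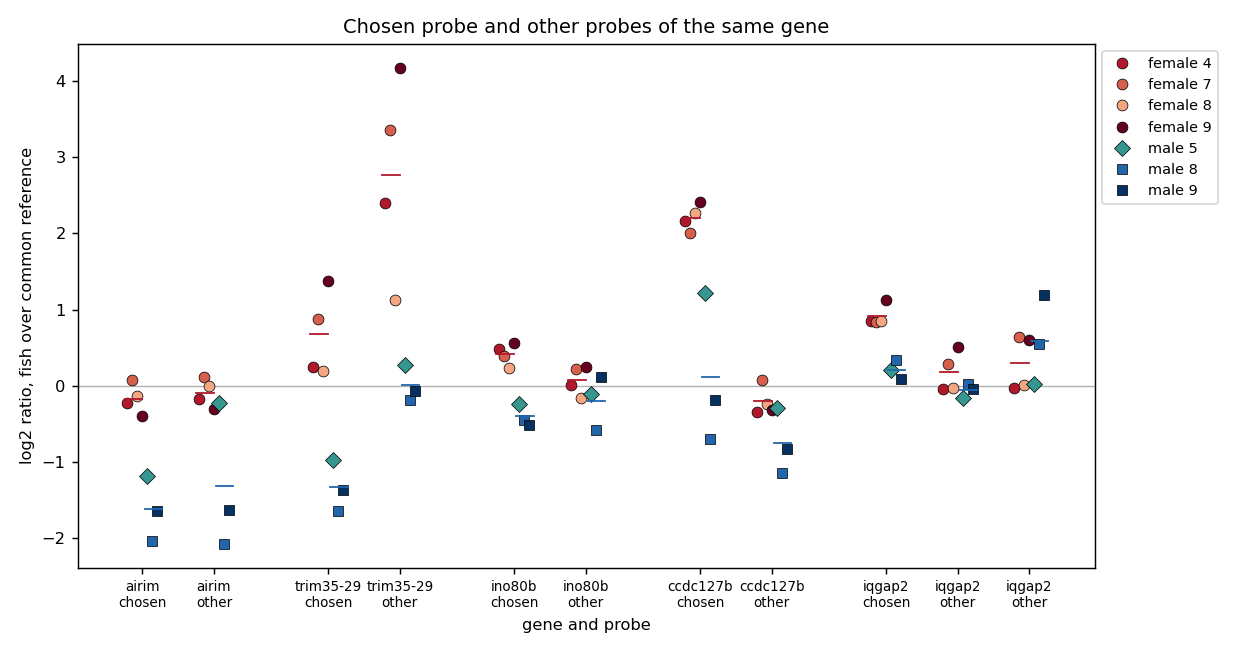
Log2 ratio of each fish over the common reference (vertical axis) for the chosen and the other probes of the 5 genes with more than 1 probe (horizontal axis), drawn with the same points, and short lines at the mean of each sex. On the other airim probe the library labelled male 5 lies at -0.23 among the females, and of the 6 other probes only that of trim35-29 keeps the sexes apart at these loess-normalized values.

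The library labelled male 5 took a different place in these probes from the one it took in most probes that separate males 8 and 9 from the females. Of the 2992 probes that were higher in females without it, it lay nearer to the females on 2964 (99.1%), with a median position of 107% of the way from males 8 and 9 to the females. On the 7 probes that chose the genes it lay nearer to the females on 1, that of ccdc127b. It was at -6.39% of the way for her2, -1.98% for iqgap2, 24.3% for trim35-29, 27.8% for ino80b, 38.1% for chrac1 and 39.6% for airim. These positions are approximate for ino80b and airim, where males 8 and 9 were not well above background in Cy5, and for her2, where the library labelled male 5 was not. The position for iqgap2 is approximate too, since its reference channel was well above background on 4 of the 7 arrays. Requiring all 3 males to lie below all females selects for this place, so it is a description of the choice. On the other 6 probes, which the choice did not use directly, it lay nearer to the females on 3, at 92.3% for airim, 88.5% for ccdc127b and 149.5% for the third iqgap2 probe, whose females read lower than males 8 and 9. It was at 13.8% for trim35-29, 40.2% for ino80b and -79.0% for the second iqgap2 probe. Of these 6 positions only those of airim and ccdc127b rest on spots well above background in Cy5 on every array.

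**Figure D3:**
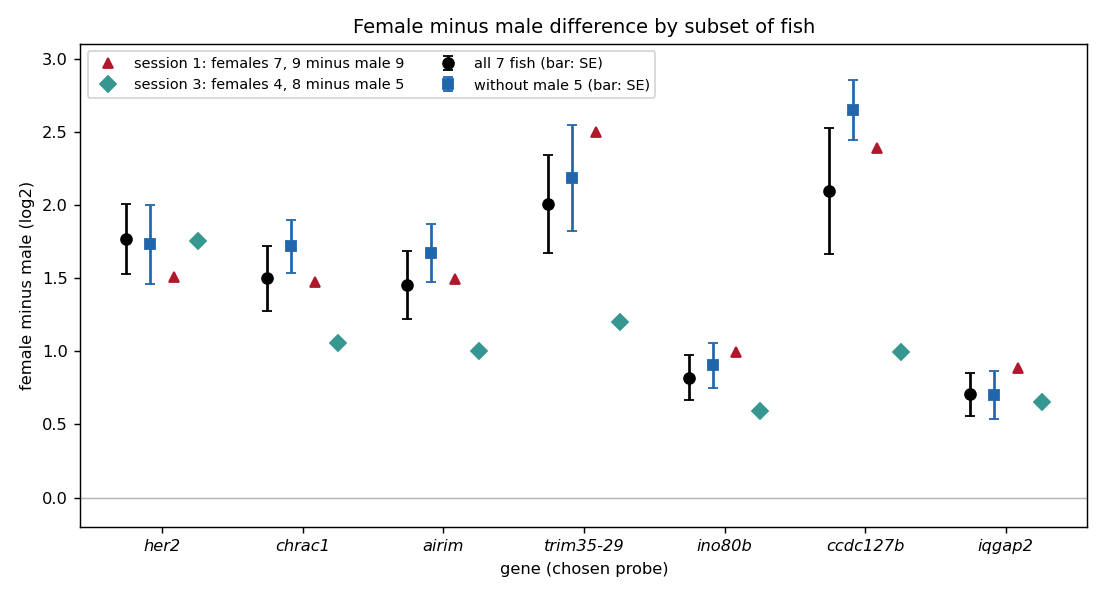
Difference in log2 ratio, female minus male (vertical axis), for the probe that chose each gene (horizontal axis), over all 7 fish and without the library labelled male 5 (bars are SE), and within sessions 1 and 3 with no error. For airim the difference is 1.00 within session 3 and 1.49 within session 1, and for her2 it is 1.75 and 1.51.

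An order of the males was read for the 4 chosen probes that stood well above background in Cy5 in all of them. In chrac1, trim35-29 and ccdc127b the library labelled male 5 was the highest male, male 9 next and male 8 the lowest at the loess-normalized values. The order of males 8 and 9 depended on the processing. With median centring male 8 was above male 9 in chrac1 (-3.82 against -4.14) and in trim35-29 (-2.91 against -3.42). In trim35-29 male 8 was above male 9 with processed signals and in the deposited table as well. In iqgap2, whose reference channel was well above background on 4 of the 7 arrays, male 8 was the highest and male 9 the lowest. With 1 array per fish and no repeat hybridisation, neighbours in these orders cannot be set against a technical error.

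Within the females, fish 4 and 8 (session 3) were set against fish 7 and 9 (session 1). Limma called 0 of all 22705 probes (0%) at an adjusted p under 0.05, the 6 other probes of these genes included, with 4934 (21.7%) at an unadjusted p under 0.05. The largest shift among the 6 was in trim35-29, at -2.01 ± 0.51 (SE, limma adjusted p = 0.130), with both session 1 females higher. For this second trim35-29 probe the reference channel was well above background on 0 of the 7 arrays, so the shift is approximate. With any 1 female left out a session holds a lone fish, so no call is read from those fits. The third iqgap2 probe followed with -0.63 (limma adjusted p = 0.101). Females 4 and 8, the session 3 side, were not well above background in Cy5 for it, so this shift is approximate too. The 7 chosen probes were picked by a p that favours a small spread among these same females, so their shifts are a description with no test. At the loess-normalized values they were -0.91 ± 0.21 for trim35-29, -0.18 for her2, -0.12 for ino80b, -0.13 for iqgap2, -0.01 for chrac1, -0.02 for airim and 0.01 for ccdc127b. These shifts depended on the processing. With median centring females 7 and 9 were above females 4 and 8 on each chosen probe, for chrac1 at 0.13 and -0.87 against -1.59 and -1.64. With processed signals ccdc127b and iqgap2 ran the other way, ccdc127b at 2.43 and 2.74 against 3.87 and 3.81.

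The difference between the sexes lay in the channel that held the fish. In that channel, Cy5, the normalized log2 intensity was higher in females by 1.67 for her2, 1.3 for chrac1, 1.32 for airim, 1.89 for trim35-29, 0.82 for ino80b, 1.69 for ccdc127b and 0.69 for iqgap2. In the reference channel, the same material on every array, the 7 differences ran from -0.41 to 0.00. The -0.41 was that of ccdc127b, where the reference read 7.64 in male 8 and between 6.59 and 6.82 in the other 6 fish. The reference of trim35-29 ran from 8.97 to 9.80, highest in the 3 fish of session 3. Of all 13 probes, 12 had a positive difference in Cy5. Since 7 of the 13 were chosen for reading higher in females, nothing is read from this count.

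**Figure D4:**
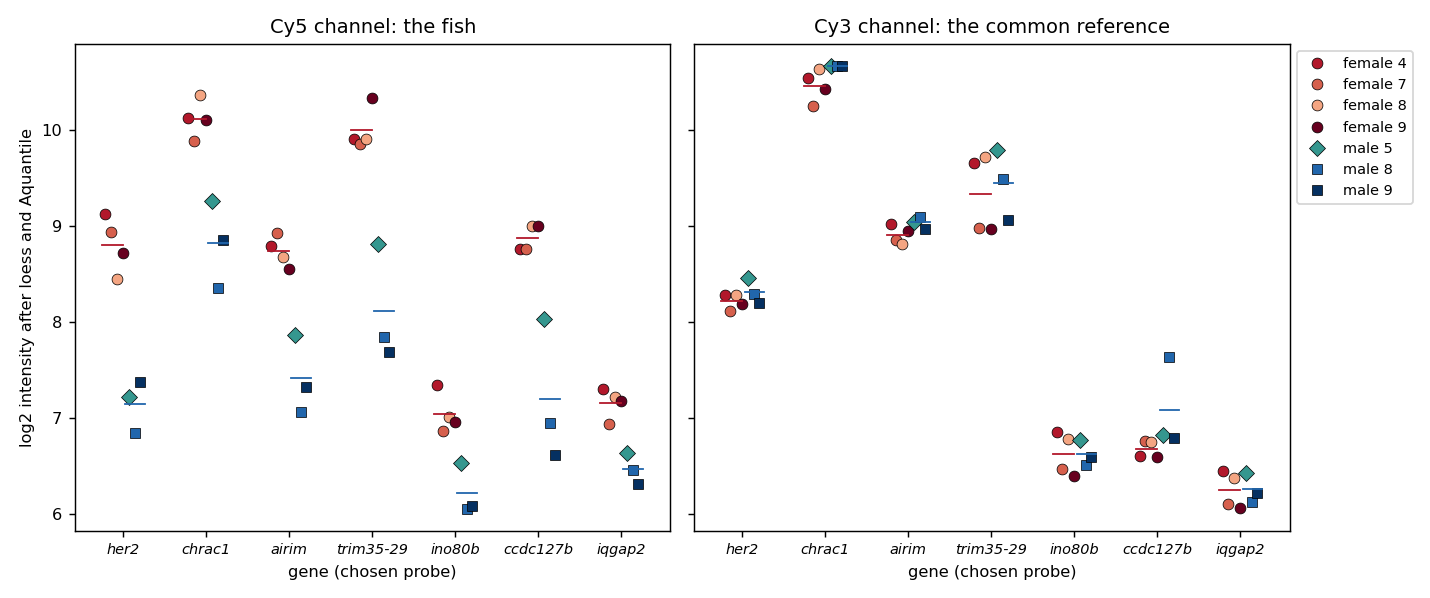
Normalized log2 intensity (vertical axis) of the fish channel, Cy5 (left), and of the reference channel, Cy3 (right), for the probe that chose each gene, 1 point per fish with short lines at the mean of each sex. In the fish channel females lie above males for each gene, in the reference channel the sexes overlap or lie close, and intensities of different probes are not comparable.

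The sizes depended on how the arrays were processed. With the scanner software's own processed signals, median centred, which changes background removal and normalization together, the differences were 4.1 for her2, 2.01 for chrac1, 3.72 for airim, 3.12 for trim35-29, 2.52 for ino80b, 2.92 for ccdc127b and 0.98 for iqgap2. The median of all tested probes was then -0.11, against -0.02 with normexp and loess. The differences of her2, airim and ino80b on those signals are approximate. The library labelled male 5 was not well above background in Cy5 for her2, nor males 8 and 9 for airim and ino80b. On those signals ccdc127b no longer kept the sexes apart, since the library labelled male 5 (2.91) was above females 7 (2.43) and 9 (2.74). Iqgap2 did not either, since female 7 (1.59) was below the library labelled male 5 (1.60) and male 8 (1.75). The second airim probe, in turn, now kept them apart, with the library labelled male 5 (-0.51) just below the lowest female (-0.41). In the authors' deposited value table the sexes again overlapped for ccdc127b and iqgap2 and were apart for both airim probes. On the second airim probe the margin there was small, with the library labelled male 5 at -0.44 and female 9 at -0.43. With median centring in place of loess all 7 stayed apart, her2 at 2.29 and chrac1 at 2.51, while the median of all tested probes was 0.23. On the second airim probe the sexes were then barely apart, with female 4 (-1.2137) and the library labelled male 5 (-1.2143) nearly level.

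The tissues behind these values were not separated. Since whole animals were ground up, fewer cells of a type and less RNA per cell cannot be told apart. Muscle markers set males 8 and 9 apart from the other 5 fish. The median of 3 was between 0.25 and 1.49 in the females and -0.13 in the library labelled male 5. In males 8 and 9 it was 5.12 and 3.44. The yolk precursor genes of the liver, which respond to oestrogen, had a median of 1.70 to 2.97 in the females, 1.65 in the library labelled male 5, and -1.69 and -2.10 in males 8 and 9. The 2 other liver markers, apoa2 and apobb.1, went the other way. Their median was 0.46 to 1.80 in the females, 0.17 in the library labelled male 5, and 4.70 and 3.62 in males 8 and 9. The 1 red blood cell marker, alas2, did not set males 8 and 9 apart. Female 9 was at 1.68 for it, above male 8 at 1.48 and below male 9 at 1.95. The part of these tissues in the differences of the 7 genes was not tested. The egg coat markers of the library labelled male 5, at a median of 0.50, lay within the female range, while the 7 chosen probes lay below it there, as their choice required.

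Vtg5, a yolk precursor gene, was the named probe just outside the 7 by limma p. It read 2.39, 1.96, 2.97 and 2.63 in females 4, 7, 8 and 9, 1.11 in the library labelled male 5, and -1.69 and -1.86 in males 8 and 9. By the width of the gap between the sexes it stood among them: its gap of 0.85 was wider than those of airim (0.79), ccdc127b (0.78), iqgap2 (0.50) and ino80b (0.47). Fdps, an enzyme of isoprenoid synthesis, was the next named gene below them with a gap of 0.40.

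Known partners and relatives of the 7 genes were examined by sex from lists that leave out the 7 themselves. Of 87 such genes with a tested probe, 4 kept the sexes apart, 2 in each direction. Among all 8832 genes with a value on every array, 330 (3.74%) did so, 207 (2.34%) with the females higher and 123 (1.39%) with the males higher. The median difference was 0.24 over the listed genes and 0.06 over all tested genes.

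The list for chrac1 held genes of the chromatin accessibility complex and the ISWI group, with the DNA polymerase epsilon genes pole and pole2. Of its 7 tested genes 0 kept the sexes apart (median difference 0.43). Pole3, which pairs with chrac1 through its histone fold in mammals, read 0.78, 1.41, 1.01 and 0.97 in females 4, 7, 8 and 9. It read 1.18 in the library labelled male 5, inside the female range, and -0.86 and 0.00 in males 8 and 9. Smarca5, the ISWI ATPase, had a difference of 1.02 ± 0.58 (SE), with females 4 and 8 at -1.63 and -1.36 beside the library labelled male 5 at -1.19. Rbbp4, a histone chaperone, was at 1.21 ± 0.57 and smarca1, the other ISWI ATPase, at -0.44 ± 0.21. The smarca1 probe was well above background in Cy5 on 4 of the 7 arrays, so its value is approximate.

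Of 18 tested subunits of the INO80 complex and genes that share its actin-related parts, 0 kept the sexes apart, with a median of 0.36. The largest differences were those of ino80e (0.92 ± 0.41, SE), actr5 (0.91 ± 0.36), the helicase gene ruvbl1 (0.84 ± 0.37) and the actin gene actb1 (0.76 ± 0.71). Actr5 was at -0.30 in the library labelled male 5, within the female range of -0.42 to 0.00, and at -1.86 and -1.29 in males 8 and 9.

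Genes of large ribosomal subunit maturation, the setting of airim, had the highest median of the lists at 0.67 over 17 genes, 13 of them with a positive difference. Nop53, an assembly factor of the large subunit, kept the sexes apart with a difference of 0.86 ± 0.29 (SE). It ran from -0.53 to 0.28 in the females and was at -0.60 in the library labelled male 5, -1.49 in male 8 and -0.82 in male 9, so its sexes were close to touching. The assembly factors ebna1bp2, mrto4 and las1l had differences of 1.26 ± 0.49, 1.05 ± 0.37 and 0.95 ± 0.43, and overlapped.

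Of 12 trim35 family genes on the array besides trim35-29, 4 were tested and 1 kept the sexes apart. Trim35-27 ran from -0.50 to 0.35 in the females and was at -0.72 in the library labelled male 5, -2.21 in male 8 and -1.65 in male 9, a difference of 1.28 ± 0.39 (SE). Trim35-7 differed by 1.08 ± 0.38 with the library labelled male 5 at 0.00, inside the female range. Trim35-10 (-1.42 ± 0.83) and trim35-39 (-0.79 ± 0.44) ran the other way, each with male 8 highest, at 3.75 and 1.74. Both are approximate, since their probes were well above background in Cy5 on 4 and 3 of the 7 arrays.

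Of 23 tested genes of the hairy/Hes family and the Notch pathway, 0 kept the sexes apart with the females higher, as her2 did, and 2 did so with the males higher. These were hey2, a related repressor (-0.40 ± 0.20, SE), and adam10b, a protease that cuts Notch (-0.21 ± 0.13). Hey2 ran from -1.11 to -0.89 in the females and was at -0.88 in the library labelled male 5, -0.73 in male 8 and -0.16 in male 9. Its sexes were thus close to touching. The hey2 probe was well above background in Cy5 on 4 of the 7 arrays, so its values are approximate. Hey1 and the Notch ligand gene dll4 were both at -1.13 (SE 0.82 and 0.83), with the library labelled male 5 the lowest of all fish in both, at -0.30 and 0.68. The list's median was -0.12.

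The partners of iqgap2 gave 0 of 18 tested genes with the sexes apart and a median of -0.06. The calmodulin genes calm2a and calm2b differed by 1.53 ± 1.56 and -1.34 ± 1.07 (SE), and the cadherin gene cdh1 and the GTPase gene rhoab by 1.43 ± 0.92 and -1.27 ± 0.76. Calm2a followed the scan session: females 4 and 8 and the library labelled male 5 were at -4.52, -4.30 and -4.43, and females 7 and 9 and male 9 at -0.28, -0.11 and -1.22. For ccdc127b, the related gene ccdc127a was on the array but too dim to be tested.

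**Figure D5:**
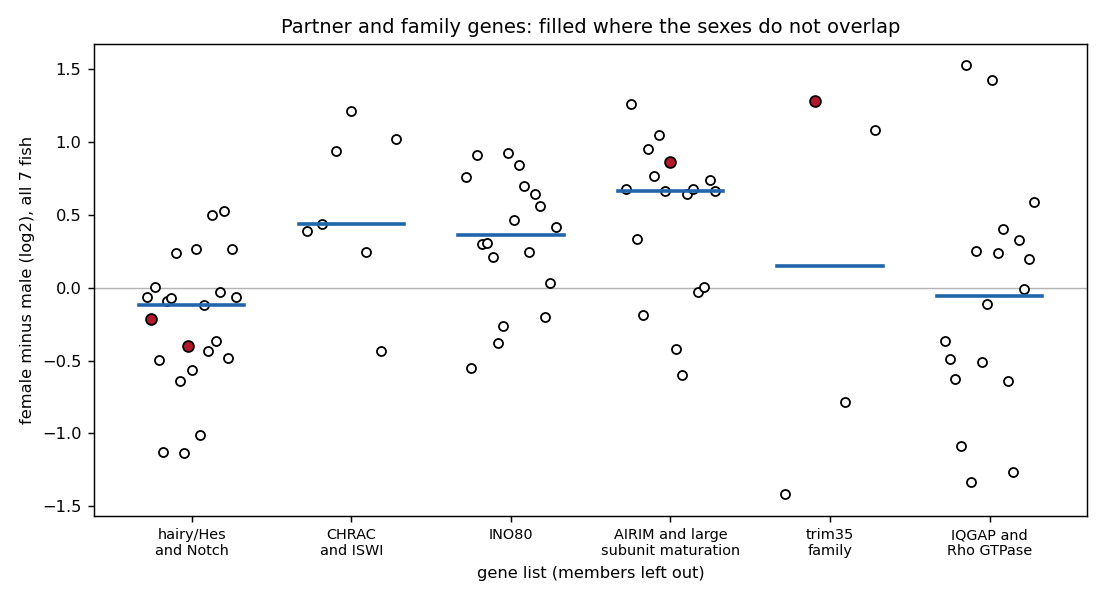
Difference in log2 ratio, female minus male, over all 7 fish (vertical axis) for the tested genes of each partner list (horizontal axis), with the 7 chosen genes left out, filled points where the sexes do not overlap and lines at the list medians. Of the 87 genes 4 are filled, and the medians run from -0.12 to 0.67.

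For each of the 7 probes, the 3 other named genes most like it were taken by Pearson r of the log2 ratio over the 7 arrays. These r ran from 0.93 to 0.99, and since all 7 probes separate the sexes, a large part of each r is that one split of the same 7 arrays. The 21 places were held by 15 genes, 5 of which were themselves among the 7. Her2 was most like ppp2r5eb (r = 0.94, Spearman rho = 0.86), a regulatory subunit of protein phosphatase 2A. Chrac1 was most like airim (0.98, rho = 0.82), ccdc127b (0.98, rho = 0.93) and snd1 (0.97, rho = 0.96), and airim like chrac1 and mlx (0.98, rho = 0.96). Trim35-29 was most like invs (0.98, rho = 1), ino80b like zgc:77158 (0.98, rho = 0.89), and iqgap2 like ino80b (0.95, rho = 0.93). Taken within sex, as deviations from each sex's mean, r was 0.93 for chrac1 and ccdc127b and 0.85 for chrac1 and airim. It was 0.48 for iqgap2 and ino80b and 0.20 for her2 and ino80b, which had 0.93 over all 7 fish. The lowest were those of iqgap2 with airim (-0.57), her2 (-0.43) and chrac1 (-0.32). The SD was 0.06 in females and 0.45 in males for chrac1, and 0.17 and 0.99 for ccdc127b. The within-sex r of chrac1 and ccdc127b therefore rests mostly on the 3 fish labelled male. Ccdc127b was most like pomgnt1 (0.99, rho = 1), and vtg5 was among its 3 (0.98, rho = 0.93).

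Genes next to the 7 in the genome were examined as well. Of the 28 genes that are the nearest 2 on each side, by their order in the GRCz12tu assembly, 7 were on the array, 5 were tested and 0 kept the sexes apart. Among all 8832 genes with a value on every array 330 (3.74%) did so, so nothing is read from a count over 5 genes. Cdca8, a gene of the chromosomal passenger complex beside airim, differed by 1.78 ± 0.81 (SE), with the library labelled male 5 at 0.20 above all females and males 8 and 9 at -3.48 and -2.74. Beside ccdc127b, rxrba was at 0.91 ± 0.41, sdha at -0.89 ± 0.44 and oxr1b at 0.43 ± 0.34, and beside her2, aldh4a1 was at -0.18 ± 0.16. Trim35-29 lies next to ino80c, another INO80 subunit gene, which had no named probe here, and her2 lies next to her15.1 and her15.2, its relatives, which had none either.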

How the data were processed

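Whole-animal RNA of 4 female and 3 male fish was measured on 7 arrays with 2 colours, fish in Cy5 and reference in Cy3, per the labels, with no dye swap. A dye effect is therefore part of every ratio and drops out only where fish are compared. The molecule is given as total RNA, while the labelling protocol describes DNA, so how RNA was labelled is not given in the sources used here. Spots were extracted by the authors in Agilent Feature Extraction, version 10.5.1.1, per the file headers (protocol GE2_105_Jan09_2, design 019161, drawn on danRer6). The deposited scanner files give each spot's intensity on a linear scale in both channels. The deposited value table holds log10 ratios, equal to the scanner's Cy5 over Cy3 log10 ratio at all 45220 spots of each array. The table therefore carries no centring added after the scanner software. Its column medians were 0 on all 7 arrays, with 7828 (female 7) to 13558 (the library labelled male 5) spots per array at exactly 0. Any centring in the authors' own later work is unknown.

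Background was removed by normexp (offset 50) on the median signal, since the mean signal named in the design was not in the files used, and arrays were normalized by loess. The 1417 control spots and 98 outlier spots were left out, and 50 probes printed as 5 repeat spots were averaged. A probe was tested when well above background in Cy5 on at least 3 arrays. Limma 3.58.1 in R 4.3.3 was used (lmFit, eBayes, two-sided, Benjamini-Hochberg over all 22705 probes, threshold 0.05), after a test on simulated data. In the simulated data the spread was taken without the library labelled male 5 and was capped. That test therefore does not show how the fit over all 7 fish behaves. Lone males within a session were assumed to vary like the other fish, and the within-session values carry no test. Of the probes, 16568 (38%) were named through RefSeq accessions in a GRCz12tu gene table, used for names and gene order alone. Per gene, the brightest tested probe was taken.

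Sessions are the scan sessions in the file headers. Male 8 was alone in its session and on its slide, so the session or the slide as a block gives the same differences as leaving it out. The 7 genes and the partner and marker lists were chosen with earlier results of these data known. From each partner list up to 4 genes with the largest difference are named, those with the sexes apart first; genes like each member are the 3 with the highest r. Alternatives were median centring, scaling between arrays, processed signals, the deposited table, other filters on dim probes, session and replicate blocks, and each fish left out.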

Additional observations from a re-analysis of the deposited data

Results flagged for a closer look

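Among the 4 females, the iqgap2 probe that chose the gene (A_15_P146916) had 1 fish far from the others. Female 9 read 1.12, while females 4, 7 and 8 read between 0.83 and 0.86. The gap from female 9 to the nearest female was 0.929 of the whole female range, past Dixon's critical value for 4 samples. Of 19 results examined in this way 1 passed, and chance gives about 1 in 20. Female 9 shared its scan session with female 7, which lay with the others at these loess-normalized values. With median centring female 9 (1.12) lay beside female 7 (1.14), and females 4 and 8 read 0.64 and 0.72. With processed signals female 9 (2.11) lay between female 7 (1.59) and females 4 (2.74) and 8 (3.07).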

How the results depend on the processing

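With 1 array per fish and few fish, precision rests on their number, and the session 3 arrays were the dimmest in Cy5 and male 8 in Cy3. Only median centring, processed signals and the deposited table change the ratios of single fish. Under all 3, 5 of the 7 chosen probes kept the sexes apart, and those of ccdc127b and iqgap2 did so under 1 (median centring). The median of the 7 differences (1.5) was 2.29 with median centring, 2.92 with processed signals, 2.87 with the deposited table, 1.26 with the session block and 1.26 to 1.72 with 1 fish left out. The session block gives the same differences as leaving out male 8, so its 1.26 is no separate check. Scaling between arrays (Aquantile) left ratios unchanged. The third iqgap2 probe (-0.29) ran from -0.57 without male 5 to 0.017 without male 9, a reversal, with 1 fish left out. With the replicate block, fish whose number is not shared drop out, so it compares females and males 8 and 9: the median was 1.58 and limma called 4084 probes by sex, against 0. Deviations of the same number correlated at -0.13 (number 8) and 0.43 (number 9). Female 9 and male 9 also shared scan session 1, so these values cannot decide whether the numbers pair the fish.

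The 8 member probes with the sexes apart became 4 when only probes well above background on all 7 arrays were kept. That filter also lowers the number of member probes tested, and 4 of the 7 chosen probes pass it. With 1 fish left out the 8 became 8 to 10. The 4 partner genes became 2 with median centring, 1 with the deposited table, 2 with that filter and 4 to 58 with 1 fish left out. All probes with the sexes apart (838 of 22674, 3.7%) became 1856 with no filter, where 43603 probes were tested. They were 343 with the filter for all 7 arrays, where 10210 were tested. With 1 fish left out they were 1261 to 11065, the last without male 5. By limma over all 7 fish, 0 to 5757 probes were called by sex with 1 fish left out, the last without male 5. The 5757 called without male 5 became 706 with median centring, 9159 with processed signals, 9506 with the deposited table and 3432 (without male 8) to 4804 with 1 further fish left out. Between sessions in females, 579 were called with no filter, and 0 to 1769 with 1 fish left out (1769 without female 4, 382 without female 8). The filters change how many probes are tested, and with a fish left out fewer values have to stay apart. Any other cause of these moves was not tested.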

Other observations

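Per the file headers, the arrays of scan sessions 1 and 3 carry the same slide code, and 3 pairs of fish share a position on it: females 4 and 7, female 9 and the library labelled male 5, and female 8 and male 9. Over 10193 probes the log2 ratios of these pairs correlated at r = 0.68, 0.50 and 0.34. Females 7 and 9, in 1 session at different positions, correlated at 0.86.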
